A study of Mus musculus with 2 samples.

Results

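The insulin-like growth factor (IGF) genes of the lung mesenchyme were followed across cell classes in 2 single-cell libraries. The set is 8 genes taken by symbol, of 32285 genes in the count tables: the ligand Igf1, its receptor Igf1r, and the binding proteins Igfbp2, Igfbp3, Igfbp4, Igfbp5, Igfbp6 and Igfbp7. All 8 symbols were found once. The cells were live tdTomato-positive lung cells that lacked CD45, EpCAM and CD31, sorted from mice of genotype Lepr-CreERT2;Rosa26-tdtomato aged 8 to 10 weeks, which had been given saline or bleomycin. In these mice a tamoxifen-dependent Cre, driven from the leptin receptor gene, turns on the red protein tdTomato for good, so the cells are those that made Lepr at the time of labelling and their descendants. Bleomycin is a drug that injures the lung and is used to model fibrosis. Each treatment had 1 library, so no difference can be set against a spread between animals and no test of the treatment is possible. The sources used here name neither how many mice a library pools, nor the dose, the interval to collection or when tamoxifen was given.

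IGF1 is a secreted growth factor that acts on the receptor tyrosine kinase encoded by Igf1r, which signals through insulin receptor substrates to PI3K and AKT. The IGF binding proteins hold most IGF outside cells; they carry it, keep it from the receptor, or release it when proteases cut them. In the lung, mesenchymal cells and macrophages are known sources of IGF1, and several binding proteins are made by fibroblasts and are bound by the matrix.

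On the mouse build mm10, Igf1 lies at chr10:87858265-87937042 and Igf1r at chr7:67952827-68233668, both on the plus strand. Igfbp2 (chr1:72824503-72852474, plus strand) and Igfbp5 (chr1:72857932-72874884, minus strand) are neighbours that point towards each other, with 5458 bases between their ends. Igfbp3 (chr11:7206086-7213923, minus strand) is next to Igfbp1, and Igfbp4 lies on the same chromosome at chr11:99041244-99054392 on the plus strand. Igfbp6 is at chr15:102144362-102149511 on the plus strand, and Igfbp7 at chr5:77349240-77408041 on the minus strand. In the annotation Igf1 overlaps the transcript Igf1os and Igfbp7 overlaps Polr2b. The sources used here do not say whether the counting used strand. Igf1os stood at 0.0340 CPM (UMI counts scaled to a common library total) in saline and 0.0691 CPM in bleomycin over all mesenchymal cells, and Polr2b at 22.9 and 19.8 CPM.

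The promoters of the 4 binding proteins that stood at least 2-fold apart between the libraries over all mesenchymal cells are shown because these genes divide into 2 that were higher and 2 that were lower in bleomycin. Each is the RefSeq window of 300 bases (build GRCm38.p6), 250 before and 50 after a start site, read 5′ to 3′ on the gene's strand. Capitals mark matches on either strand to GGGCGG (the GC box), CCAAT (the CCAAT box) or TATAAA (the TATA box). Igfbp2 and Igfbp4 were higher in bleomycin, Igfbp3 and Igfbp6 lower.
Igfbp2, chr1:72824230-72824529, plus strand: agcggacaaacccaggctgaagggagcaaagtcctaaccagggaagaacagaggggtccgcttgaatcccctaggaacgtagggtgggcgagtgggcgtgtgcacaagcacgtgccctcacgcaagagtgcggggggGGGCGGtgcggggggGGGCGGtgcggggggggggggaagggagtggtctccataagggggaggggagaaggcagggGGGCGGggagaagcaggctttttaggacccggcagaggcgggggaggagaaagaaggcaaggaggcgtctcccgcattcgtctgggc
Igfbp4, chr11:99040994-99041293, plus strand: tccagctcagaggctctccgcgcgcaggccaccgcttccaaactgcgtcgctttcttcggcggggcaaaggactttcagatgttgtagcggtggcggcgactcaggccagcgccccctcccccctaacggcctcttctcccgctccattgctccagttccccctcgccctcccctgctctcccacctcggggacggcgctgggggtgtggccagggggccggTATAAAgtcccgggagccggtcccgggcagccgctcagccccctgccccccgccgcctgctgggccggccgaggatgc
Igfbp3, chr11:7213874-7214173, minus strand: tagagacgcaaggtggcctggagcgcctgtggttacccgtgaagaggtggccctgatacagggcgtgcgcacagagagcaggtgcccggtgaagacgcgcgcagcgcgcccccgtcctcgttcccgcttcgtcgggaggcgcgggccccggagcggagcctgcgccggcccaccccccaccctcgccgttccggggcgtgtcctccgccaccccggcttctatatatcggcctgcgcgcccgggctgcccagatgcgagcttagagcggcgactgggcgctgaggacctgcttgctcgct
Igfbp6, chr15:102143936-102144235, plus strand: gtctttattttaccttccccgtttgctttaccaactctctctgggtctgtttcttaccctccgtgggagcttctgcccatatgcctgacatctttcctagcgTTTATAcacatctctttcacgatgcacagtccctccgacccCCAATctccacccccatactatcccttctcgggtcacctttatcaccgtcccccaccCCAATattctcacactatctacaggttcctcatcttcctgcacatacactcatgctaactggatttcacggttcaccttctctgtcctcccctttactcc

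Of 27025 promoters of this length, 35.9% held GGGCGG, 37.9% CCAAT and 14.2% TATAAA, each counted on both strands. The Igfbp2 window held 3 copies of GGGCGG, the Igfbp4 window 1 TATAAA, and the Igfbp6 window 2 CCAAT and 1 TATAAA on the opposite strand. None of these letters stood in the Igfbp3 window. The 3 motifs share no overlapping match in these windows, and the matches are descriptions of sequence only. Their shares of G and C were 67.0% for Igfbp2, 71.3% for Igfbp4, 71.7% for Igfbp3 and 49.7% for Igfbp6, against a median of 52.7% over all promoters in the table. All 8 genes had a window there; Igfbp2 had a second one further into the gene. The Igfbp6 window is set on a RefSeq start and ends before the gene start of the mm10 annotation given above.

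Depth differed between the libraries: 60937359 unique transcript molecules (UMIs) over 8396 cell barcodes in saline, a median of 6762 per barcode, and 134732429 over 10138 in bleomycin, a median of 11662. After filtering, 8284 and 10001 cells were used, and the libraries shared 25 barcodes, none with identical counts. Cells were clustered without the 8 genes and without 43 other genes of the IGF system, so the classes are not made from them, and clusters were named from marker lists as "-like". Over the mesenchymal clusters (8099 saline and 9623 bleomycin cells) Col1a1 stood at 963 and 3808 CPM and Pdgfra at 525 and 284 CPM, while Ptprc (CD45), Epcam and Pecam1 (CD31) were at most 1.45 CPM in either library. A cluster with epithelial and endothelial genes (125 and 191 cells), a mesothelial cell-like cluster (42 and 117) and an immunoglobulin gene cluster (18 and 70) were left out of the mesenchymal sums. Peribronchial fibroblast-like cells differed most in depth of the compared classes, at medians of 3377 UMIs in saline and 8944 in bleomycin. Brackets give 95% intervals that cover counting error only.

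Over all mesenchymal cells, 3 of the 8 genes met the size rule as higher in bleomycin and 2 as lower. The rule took genes with a ratio of 2-fold or more in either direction, 10 CPM or more in one of the libraries and a ratio interval clear of 1; all 8 genes passed the 10 CPM minimum. Of the 8017 genes at 10 CPM or more, 5.56% met it as higher, 5.91% as lower and 11.5% in either direction, with a median log2 ratio of -0.04. Igf1 stood at 137 CPM in saline against 566 in bleomycin, a ratio of 4.13 [4.03 to 4.22]. Igfbp4, which mostly restrains IGF until it is cleaved, stood at 510.2 and 1232 CPM, a ratio of 2.41 [2.39 to 2.44]. Igfbp2 was nearly absent in saline, at 0.867 CPM, and reached 68.4 CPM in bleomycin, a ratio of 78.9 [60.0 to 106].

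In the other direction, Igfbp3, a major IGF carrier, stood at 243 CPM in saline against 47.9 CPM in bleomycin, a ratio of 0.197 [0.191 to 0.203]. Igfbp6, which prefers IGF2 over IGF1, stood at 854 and 262 CPM, a ratio of 0.307 [0.303 to 0.312]. Igf1r, Igfbp5 and Igfbp7 stayed inside the 2-fold limit, at ratios of 0.658 [0.636 to 0.680], 1.62 [1.58 to 1.66] and 1.35 [1.34 to 1.35]. The binding proteins thus lay on both sides of the overall median.

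The 2 libraries hold different mixtures of classes. Alveolar fibroblast-like cells made up 71.2% of the mesenchymal UMIs in saline and 2.22% in bleomycin, while inflammatory fibroblast-like cells made up 2.21% and 35.9% and fibrotic fibroblast-like cells 0.0939% and 32.0%. The 12 genes of the fibrotic marker list summed to 1941 and 17767 CPM over mesenchymal cells and the 13 of the alveolar fibroblast list found in the table to 10052 and 3995 CPM, none at 0. A cluster held mostly by 1 library, such as the fibrotic and inflammatory ones, can reflect that library rather than a kind of cell. The line between alveolar and inflammatory cells also moved with the clustering. The alveolar class held 382 bleomycin cells, but at resolution 1 a cluster of 76 saline and 1652 bleomycin cells was named alveolar too. It shared the leading genes Hp and C6 with the coarser inflammatory cluster (108 and 3650 cells). The low alveolar share in bleomycin depends on that naming. With both libraries weighted to the saline mixture over the 8 mesenchymal clusters that held at least 50 cells of each, the ratios were 2.51 for Igf1, 37.6 for Igfbp2 and 0.183 for Igfbp3, still past 2-fold. The size of the Igfbp2 ratio leans on 1 alveolar cluster with a weight of 34.6%. Its bleomycin level of 36.7 CPM came from 68 UMIs, 66 of them in 1 cell. Igfbp4 and Igfbp6 came to 1.76 and 0.515, short of it. Within those 8 clusters Igf1 and Igfbp4 were higher in bleomycin in 8 of 8, and Igfbp3 and Igfbp6 lower in 7 of 8. For all genes tested, 10.1% were higher in every one of the 8 clusters, and 18.1% were lower in at least 7.

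**Figure D1:**
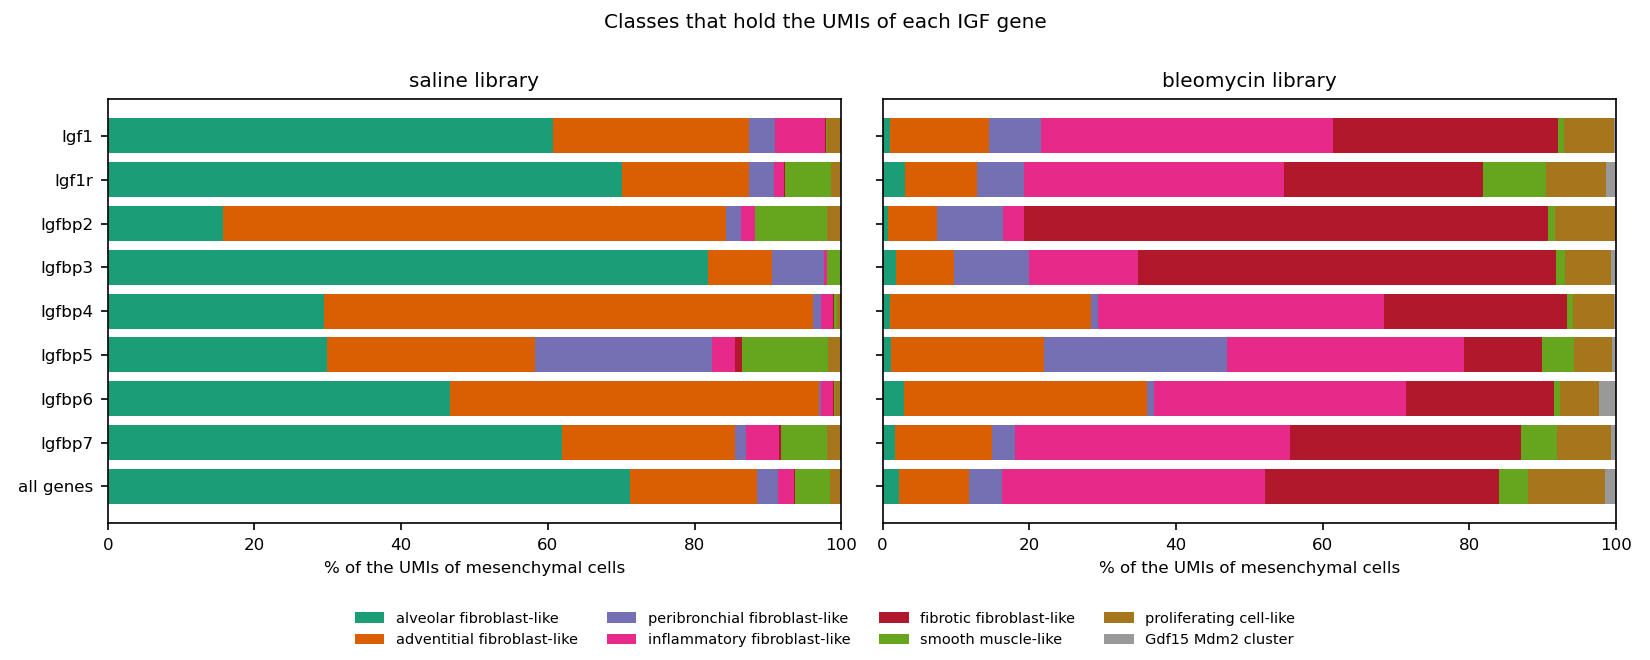
Share of the UMIs of each gene (bars, in % of the gene's UMIs over mesenchymal cells) that lay in each class, for the saline library (left) and the bleomycin library (right); the lowest bar shows all genes together. In bleomycin, fibrotic fibroblast-like cells held 71.4% of the Igfbp2 UMIs and 57.0% of the Igfbp3 UMIs, against 32.0% of all UMIs.

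The ligand Igf1 was highest in inflammatory fibroblast-like cells of the saline library, at 422 [387 to 459] CPM (108 cells). Adventitial fibroblast-like (212 CPM), proliferating (175 CPM) and peribronchial fibroblast-like cells (169 CPM) followed with overlapping intervals for neighbours in that order, then alveolar fibroblast-like cells (117 CPM) and smooth muscle-like cells (6.03 CPM). In bleomycin the order of the first places was peribronchial (890.1 CPM), adventitial (805 CPM), inflammatory (628 CPM) and fibrotic (542 CPM), with no overlap between neighbours. The ratio was 5.26 [4.67 to 5.95] in peribronchial, 3.80 [3.62 to 3.98] in adventitial, 2.11 [1.80 to 2.50] in proliferating and 1.49 [1.37 to 1.62] in inflammatory cells, the last short of the 2-fold limit.

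In alveolar fibroblast-like cells Igf1 met the rule narrowly, with a ratio of 2.09 [1.93 to 2.27]. The value lay between 1.87 and 1.99 in 4 of the alternatives, short of the rule, and was 4.61 at clustering resolution 1, where a cluster of 76 saline and 1652 bleomycin cells led by Nnat and Ces1d counted as alveolar. Both of that class's clusters were under 2-fold on their own: 1.85 [1.69 to 2.01] in the cluster led by Cxcl9 and 1.48 [1.18 to 1.85] in the cluster led by Slc7a10, and the saline cells lay mostly in the second and the bleomycin cells mostly in the first. In smooth muscle-like cells Igf1 went from 6.03 to 127 CPM, a ratio of 21.1 [13.1 to 36.5]. In the epithelial and endothelial gene cluster, which is no mesenchymal class, it went from 22.8 to 118 CPM.

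Counted per cell, with every cell thinned to 2000 UMIs, 18.7% [17.8 to 19.5] of saline and 53.0% [52.0 to 54.0] of bleomycin mesenchymal cells had an Igf1 UMI (41.0% and 82.2% without thinning). In the epithelial and endothelial gene cluster the shares were 2.59% [0.537 to 7.37] and 8.75% [4.87 to 14.2], at median depths of 5759 and 7488 UMIs against 6778 and 11797 over mesenchymal cells. The smooth muscle-like shares of 1.42% [0.464 to 3.29] and 8.35% [6.11 to 11.1] lay at that level. The ratio of that class is therefore not read as a change of the whole class. Before thinning, its 656 bleomycin UMIs lay in 86 of 524 cells, 43 of them with 5 or more. The 225 bleomycin UMIs of the epithelial and endothelial gene cluster lay in 32 of 191 cells, 16 with 5 or more. Where these UMIs come from was not tested. At clustering resolution 1 nearly the same class was a cluster led by Myh11, at 6.03 CPM of Igf1 in saline and 130 in bleomycin. Another cluster named smooth muscle-like there, led by Cnn1, Tnnt2 and Actc1, held more Igf1, at 166 CPM in saline and 407 in bleomycin. Its saline cells, with the 332 of a cluster led by Pappa2, match the 408 of the coarser peribronchial class in cells and UMIs. These values thus do not describe the coarser smooth muscle-like class. The cluster led by Cnn1 had a UMI in 44.7% of 76 and 70.7% of 164 cells before thinning. The fibroblast classes of the bleomycin library lay well above the share of the epithelial and endothelial gene cluster. They ran from 27.3% [22.9 to 32.2] in alveolar to 65.7% [62.9 to 68.5] in adventitial cells.

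**Figure D2:**
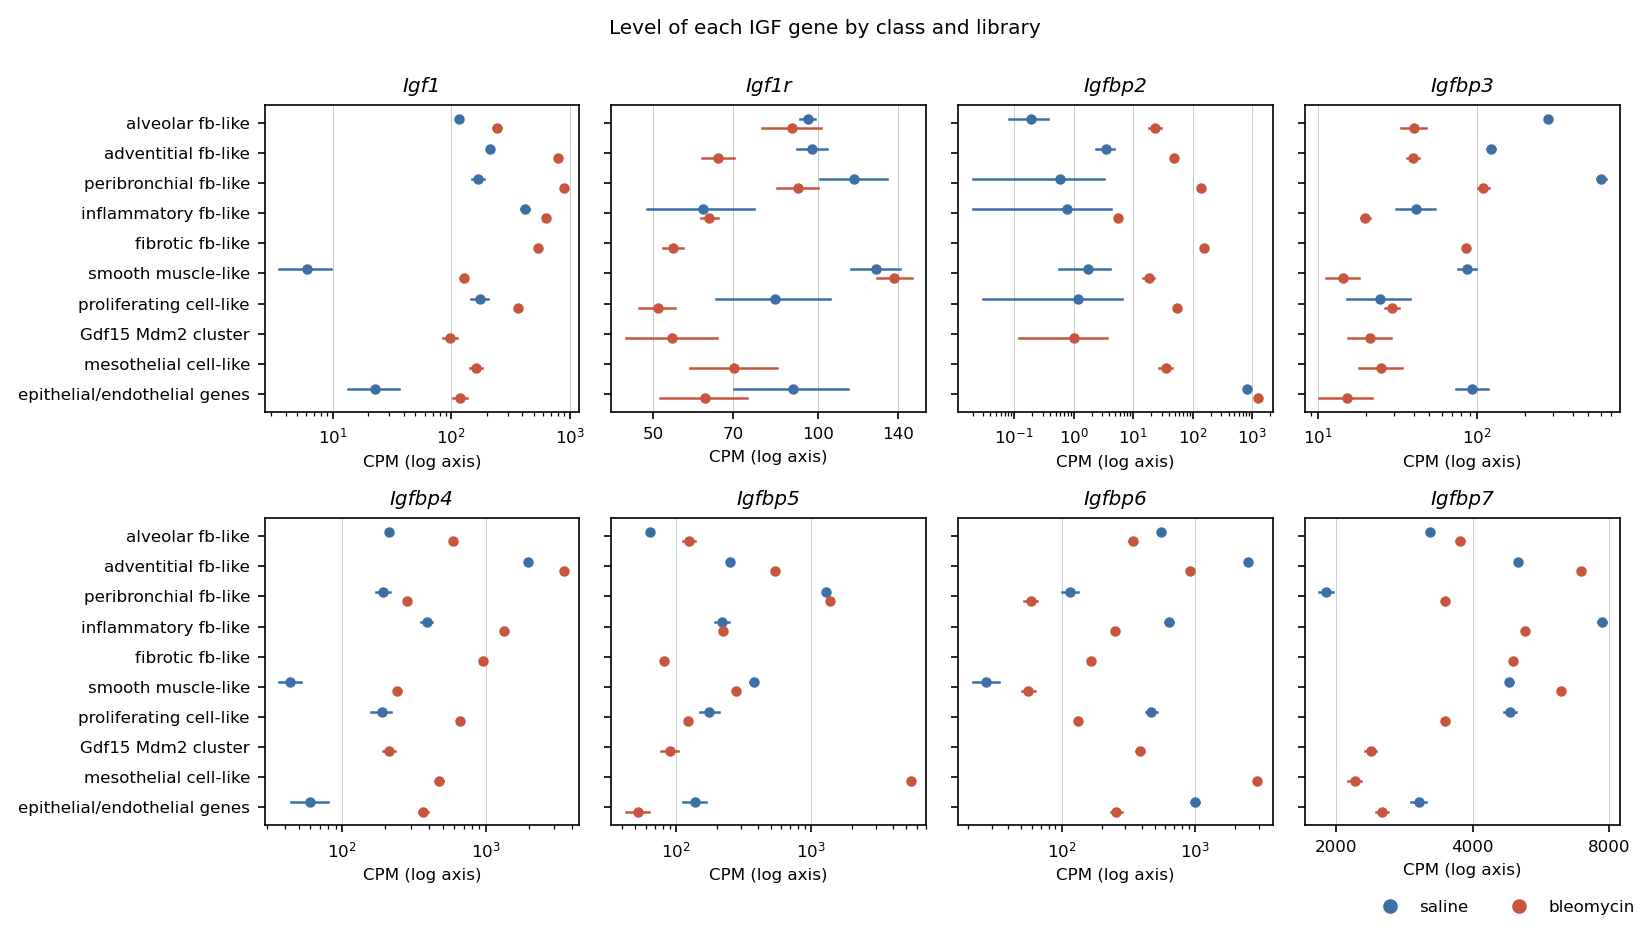
Level of each gene in CPM (x, log axis) in each class (y) of the saline (blue) and bleomycin (red) libraries; bars are 95% counting intervals and classes under 50 cells in a library are not drawn. The Igf1 and Igfbp4 points of bleomycin lie to the right of those of saline in every class drawn in both libraries, while those of Igfbp6 lie to the left in all but smooth muscle-like cells.

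The receptor Igf1r was found in every class. In saline it ran from 61.6 [48.8 to 76.6] CPM in inflammatory fibroblast-like to 128 [115 to 142] CPM in smooth muscle-like cells. Neighbours in that order had overlapping intervals, but the ends of the range lay apart. In bleomycin smooth muscle-like cells stood apart from the rest at 138 [128 to 149] CPM, followed by peribronchial (92.0 CPM) and alveolar fibroblast-like cells (89.6 CPM), with fibrotic (54.3 CPM) and proliferating cells (50.9 CPM) at the low end. No class met the size rule. The ratio was 1.08 [0.951 to 1.23] in smooth muscle-like and 0.672 [0.612 to 0.738] in adventitial cells, and at the saline mixture it was 0.921. The share of cells with a UMI at 2000 UMIs was 17.7% [16.8 to 18.5] in saline and 12.8% [12.1 to 13.5] in bleomycin, but without thinning it was 46.3% and 51.2%, so the order turned with depth.

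Igfbp2, which carries an integrin-binding motif beside its IGF site, was the gene with the largest ratio of the 8. Its saline total over 8099 mesenchymal cells was 51 UMIs, 35 of them in adventitial fibroblast-like cells, against 8909 UMIs in bleomycin. The bleomycin levels were 153 CPM in fibrotic and 137 CPM in peribronchial fibroblast-like cells. Proliferating (54.2 CPM) and adventitial cells (47.7 CPM) followed and did not differ beyond their intervals, and inflammatory fibroblast-like cells had only 5.61 CPM. In peribronchial cells 1 UMI in saline stood against 798 in bleomycin, a ratio of 232 [41.5 to 9174].

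Within the adventitial class the cluster led by Aqp1 and Adh7 had 104 CPM in bleomycin and 4.54 in saline, and the Pi16 cluster 11.9 CPM and 0 of 2464473 UMIs. The saline cells of that class lay mostly in the first and the bleomycin cells mostly in the second. The ratio of the class was 13.9 [9.85 to 20.1]. In alveolar fibroblast-like cells the ratio of 123 [59.1 to 297] rested on single cells: 3 of 382 bleomycin cells held all 68 UMIs, 66 of them in 1 cell. With the IGF genes kept in the clustering the ratio there was 1.95, and 6 of the alternatives ended the call.

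The epithelial and endothelial gene cluster had more Igfbp2 than any mesenchymal class, 812 CPM in saline against 1233 CPM in bleomycin. The levels of epithelial and endothelial genes are therefore given beside it. In fibrotic fibroblast-like cells of the bleomycin library Igfbp2 stood at 12.4% of its level in that cluster, while the alveolar epithelial genes Sftpc, Ager and Hopx stood at 0.0323%, 0.102% and 0.397% of theirs. In peribronchial cells the corresponding values were 11.1% for Igfbp2 and 0.0149%, 0.0471% and 0.177% for the 3 epithelial genes. Igfbp2 and these alveolar epithelial genes thus did not keep 1 ratio between classes. The vascular endothelial list lay nearer to Igfbp2. In bleomycin it summed to 63.8 CPM in fibrotic and 42.1 CPM in peribronchial cells, against 1107 CPM in that cluster. The airway epithelial list summed to 51.4, 165 and 18350 CPM in the same order. The source of the Igfbp2 UMIs was not tested. The 10 genes of the alveolar epithelial list summed to 78.9 CPM over saline and 44.2 CPM over bleomycin mesenchymal cells, with none at 0.

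Igfbp2 was concentrated in a minority of cells. At 2000 UMIs, 12.0% [10.7 to 13.3] of fibrotic, 8.21% [6.11 to 10.7] of peribronchial and 6.55% [4.65 to 8.91] of proliferating cells in bleomycin had a UMI, against 0.633% [0.402 to 0.949] of inflammatory cells. Without thinning, 570 of 2472 fibrotic cells had at least 1 UMI, 278 had 5 or more, and the 3 highest cells held 8.62% of the class total. In other bleomycin classes the 3 highest cells held more: 17.5% in peribronchial, 24.8% in proliferating, 32.2% in adventitial and 44.7% in smooth muscle-like cells. A single adventitial cell held 102 of the 593 UMIs of its class. Counting intervals do not cover this spread. In the Gdf15 Mdm2 cluster 0 of 192 cells had a UMI at that depth, an upper interval bound of 1.90%.

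**Figure D3:**
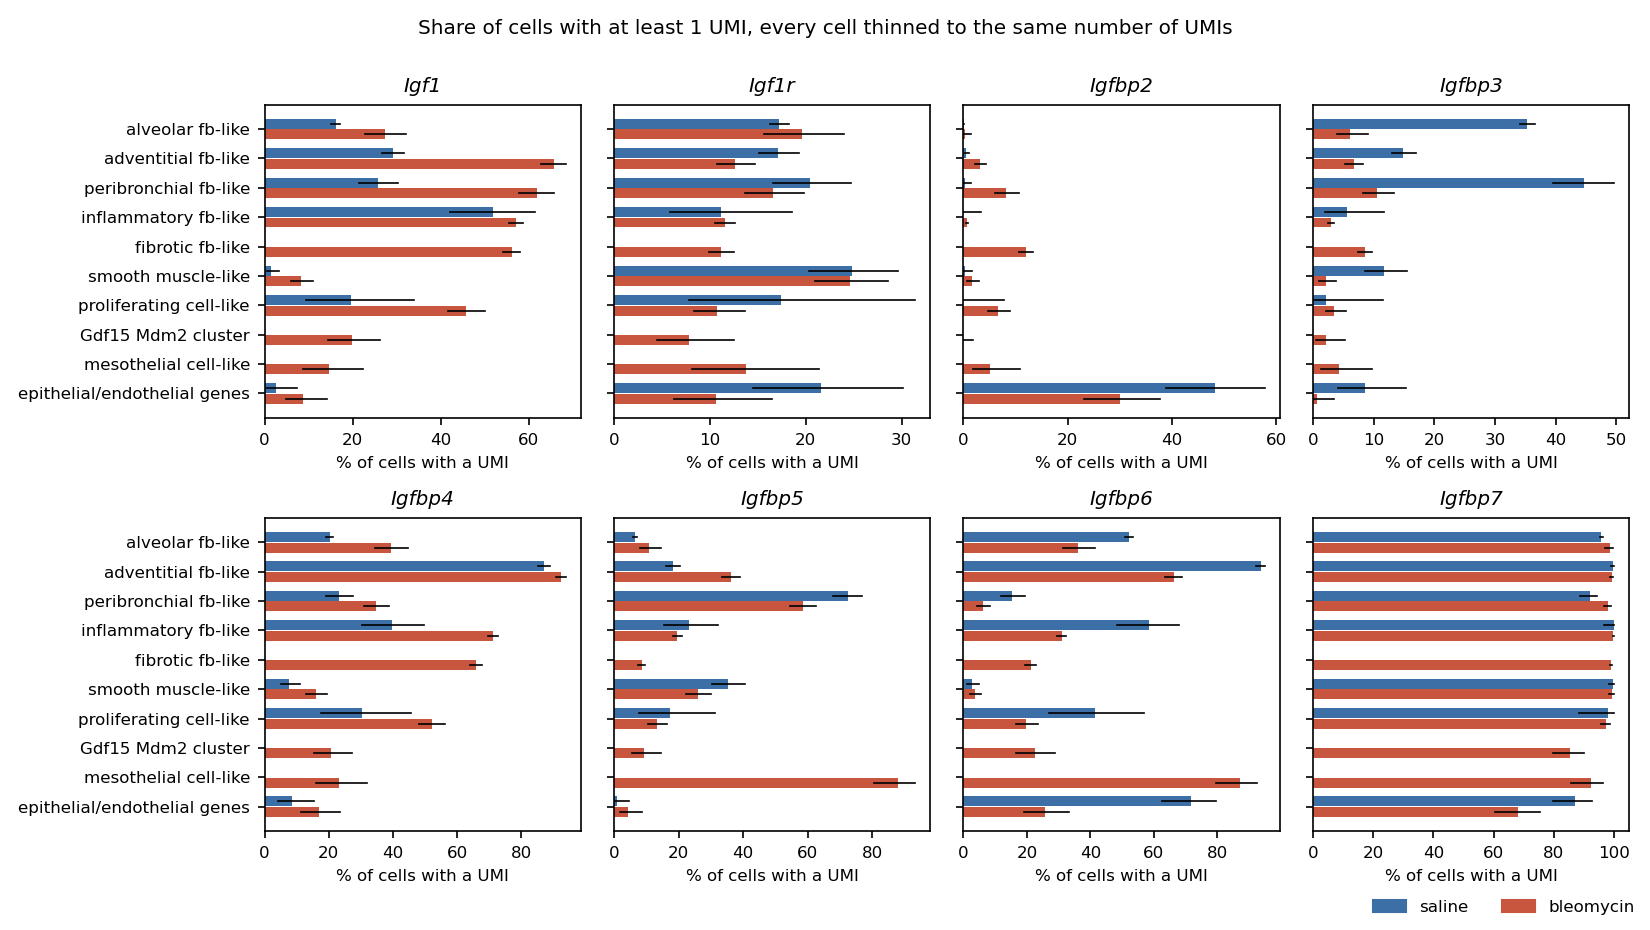
Share of cells (x, %) with at least 1 UMI of each gene in each class (y), with every cell thinned to 2000 UMIs, in the saline (blue) and bleomycin (red) libraries; black lines are exact 95% intervals. Igfbp7 was found in nearly all cells of the fibroblast and smooth muscle classes, whereas Igfbp2 passed 10% in mesenchymal cells only among fibrotic fibroblast-like cells.

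Igfbp3 was highest in peribronchial fibroblast-like cells of both libraries, at 606 [569.7 to 645] CPM in saline against 109.7 [101 to 119] CPM in bleomycin, a ratio of 0.181 [0.164 to 0.200]. In saline the alveolar class was next (279 CPM), and within it the Slc7a10 cluster stood at 414 CPM and the Cxcl9 cluster at 136 CPM. The 2 clusters stood at 48.3 and 35.6 CPM in bleomycin. The ratio was 0.144 [0.119 to 0.173] in the alveolar, 0.323 [0.290 to 0.359] in the adventitial and 0.165 [0.126 to 0.215] in the smooth muscle-like class. It was 0.477 [0.362 to 0.640] in inflammatory cells, a call that 3 alternatives ended, at values from 0.512 to 0.592. At clustering resolution 1 it was 0.0812, but other cells were named inflammatory there. They were a cluster led by Cxcl9 (978 saline and 71 bleomycin cells) and a cluster led by Saa3 (2 and 1129 cells). That value thus sets mostly unlike clusters against each other. Proliferating cells did not meet the rule, at 1.18 [0.763 to 1.93].

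Igfbp3 was also lower in the epithelial and endothelial gene cluster, at 93.9 CPM in saline against 15.3 CPM in bleomycin. The share of mesenchymal cells with an Igfbp3 UMI at 2000 UMIs was 30.6% [29.6 to 31.6] in saline and 5.44% [4.99 to 5.91] in bleomycin, and 8.62% [4.21 to 15.3] and 0.625% [0.0158 to 3.43] in the epithelial and endothelial gene cluster. Smooth muscle-like cells, at 11.7% [8.51 to 15.5] and 2.14% [1.07 to 3.79], overlapped that cluster in both libraries, as did inflammatory cells. The bleomycin value of that cluster rests on 29 UMIs in 3 cells before thinning, so the overlap cannot show that either class lacks Igfbp3. Inflammatory cells of bleomycin held 925 UMIs in 444 of 3650 cells. The adventitial class (14.9% [13.1 to 16.9] and 6.70% [5.32 to 8.30]) overlapped the epithelial and endothelial gene cluster in saline but not in bleomycin. In saline the alveolar (35.3% [34.0 to 36.6]) and peribronchial classes (44.6% [39.6 to 49.6]) lay above that cluster.

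Igfbp4 was highest in adventitial cells of both libraries. The adventitial class held 66.8% of its UMIs in saline and 27.3% in bleomycin, where inflammatory cells held 38.9% and fibrotic cells 25.1%. Its adventitial level was 1970.5 CPM in saline against 3526 CPM in bleomycin, a ratio of 1.79 [1.76 to 1.82] that did not meet the rule. The Pi16 cluster was highest in both libraries, at 3428 and 4187 CPM, a ratio of 1.22 [1.19 to 1.25]. The rule was met in classes with lower levels, at ratios of 3.44 [3.15 to 3.76] in inflammatory cells (389 to 1336 CPM), 3.52 [3.01 to 4.14] in proliferating and 2.81 [2.67 to 2.96] in alveolar fibroblast-like cells. Peribronchial cells stood at 193 and 285 CPM, a ratio of 1.48 [1.31 to 1.67].

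Smooth muscle-like cells met the rule for Igfbp4 with 43.6 and 243 CPM, but the epithelial and endothelial gene cluster went from 59.6 to 367 CPM. At 2000 UMIs the smooth muscle-like shares of cells were 7.69% and 15.9% [12.9 to 19.4], and those of the epithelial and endothelial gene cluster 8.62% [4.21 to 15.3] and 16.9% [11.4 to 23.6]. Before thinning, 58 of 524 smooth muscle-like and 24 of 191 cells of that cluster in bleomycin had 5 or more Igfbp4 UMIs. The smooth muscle-like shares are therefore not told apart from those of that cluster, and where these UMIs come from was not tested. Over all mesenchymal cells the share was 31.6% [30.5 to 32.6] in saline and 63.7% [62.7 to 64.7] in bleomycin, and it was 65.8% [63.9 to 67.7] in fibrotic cells.

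Igfbp5, a binding protein that attaches to matrix, separated the classes more than it separated the libraries. Peribronchial fibroblast-like cells stood at 1279 [1226 to 1334] CPM in saline against 1384 [1354 to 1415] CPM in bleomycin, a ratio of 1.08 [1.03 to 1.14]. That ratio joins 2 finer clusters of clustering resolution 1 that went in opposite directions. The cluster led by Pappa2, Aspn and Hhip stood at 1498 CPM in saline and 1763 in bleomycin. The smaller cluster led by Cnn1, Tnnt2 and Actc1 (76 and 164 cells) stood at 752 and 294 CPM. The mesothelial cell-like cluster, outside the mesenchymal sums, was higher still at 5417 CPM in bleomycin (117 cells) and 8572 CPM over only 42 cells in saline. Fibrotic fibroblast-like cells were at the low end in bleomycin, at 81.7 [79.0 to 84.5] CPM. The Slc7a10 cluster of alveolar cells had 8.35 CPM in saline against 123 CPM in the Cxcl9 cluster. At 2000 UMIs 72.5% [67.9 to 76.9] of saline and 58.5% [54.3 to 62.5] of bleomycin peribronchial cells had an Igfbp5 UMI, and 0.862% [0.0218 to 4.71] and 4.38% [1.78 to 8.81] of the epithelial and endothelial gene cluster.

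The 1 class that met the rule for Igfbp5 was the adventitial one, with 249.6 and 538 CPM, a ratio of 2.16 [2.06 to 2.26]. That difference lay in the Adh7 cluster (166 to 596 CPM, ratio 3.60 [3.37 to 3.85]), while the Pi16 cluster stood at 512 and 502 CPM with a ratio interval of 0.919 to 1.04. The difference between the 2 clusters was not tested. At clustering resolution 1 the class ratio was 1.95, short of the rule. In inflammatory cells the ratio was 1.02 [0.908 to 1.15] and its side of 1 changed with the processing. Igfbp5 and its neighbour Igfbp2 ran differently over the classes: fibrotic cells had the most Igfbp2 of the mesenchymal classes and the least Igfbp5 in bleomycin.

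Igfbp6 was, like Igfbp4, highest among mesenchymal classes in adventitial cells, but lower in bleomycin, at 2479.7 CPM in saline against 911 CPM in bleomycin, a ratio of 0.367 [0.359 to 0.375]. Inside that class the ratio was 0.351 [0.336 to 0.367] in the Pi16 cluster and 0.531 [0.516 to 0.545] in the Adh7 cluster. The inflammatory (0.395 [0.368 to 0.424]) and proliferating classes (0.284 [0.255 to 0.318]) also met the rule. On the saline side of the proliferating class, the 3 highest of 52 cells held 40.5% of the Igfbp6 UMIs. Alveolar (0.610 [0.572 to 0.650]) and peribronchial cells (0.506 [0.423 to 0.606]) lay short of it, though 5 alternatives took the peribronchial ratio past it. In the epithelial and endothelial gene cluster Igfbp6 went from 1001 to 257 CPM, and in the mesothelial cell-like cluster the bleomycin level was 2908 CPM.

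Smooth muscle-like cells were the only compared class with a higher Igfbp6 level in bleomycin, at 27.3 and 56.5 CPM, a ratio of 2.07 [1.60 to 2.70]. Without the cells of highest doublet scores it was 0.538, the opposite direction. Only 2.56% [1.18 to 4.81] of saline and 3.50% [2.08 to 5.47] of bleomycin cells of that class had a UMI at 2000 UMIs, the lowest share of all classes. For Igfbp6 the epithelial and endothelial gene cluster stood far above smooth muscle-like cells, at 71.6% [62.4 to 79.5] and 25.6% [19.1 to 33.1]. Over all mesenchymal cells the share was 55.2% [54.1 to 56.3] in saline and 29.0% [28.1 to 29.9] in bleomycin.

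Igfbp7, a secreted protein with low affinity for IGF, was found in nearly every cell. At 2000 UMIs 96.4% [96.0 to 96.8] of saline and 98.9% [98.7 to 99.1] of bleomycin mesenchymal cells had a UMI, and 87.1% [79.6 to 92.6] and 68.1% [60.3 to 75.3] of the epithelial and endothelial gene cluster did. Levels ran from 1907 CPM in peribronchial to 7691 CPM in inflammatory cells of the saline library. Among the mesenchymal clusters of bleomycin they ran from 2389 CPM in the Gdf15 Mdm2 cluster to 6922 CPM in adventitial cells. No class met the size rule, with ratios between 0.680 [0.666 to 0.693] in inflammatory and 1.82 [1.76 to 1.89] in peribronchial cells.

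**Figure D4:**
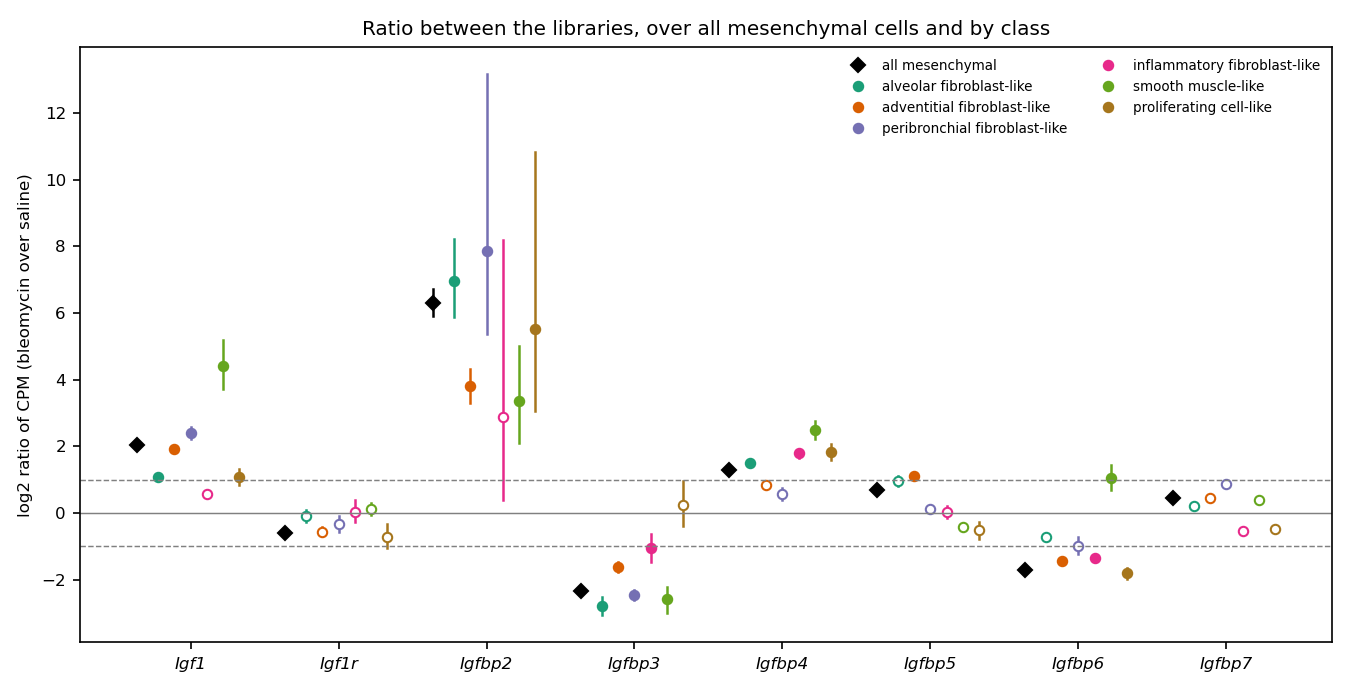
Ratio of CPM between the libraries (y, log2 of bleomycin over saline) for each gene, over all mesenchymal cells (black diamonds) and in the 6 compared classes (coloured points, filled where the size rule was met); bars are 95% counting intervals and dashed lines mark 2-fold. Igfbp2 has the highest points, at 6.30 over all mesenchymal cells, and Igfbp3 lies below the lower dashed line in 5 of 6 classes.

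The number of genes that met the rule differed between classes, and is read against the share of all genes that did. In alveolar fibroblast-like cells 3 of the 8 were higher (Igf1, Igfbp2, Igfbp4) and 1 lower (Igfbp3), where 2.37% and 0.785% of all genes tested were (3.15% in either direction). As given above, 66 of the 68 bleomycin Igfbp2 UMIs of that class lay in 1 cell. Igf1 there was under 2-fold in each of the class's clusters, at 1.85 and 1.48, and both calls ended in some alternatives. In adventitial cells 3 were higher (Igf1, Igfbp2, Igfbp5) and 2 lower (Igfbp3, Igfbp6), where 3.28% and 3.66% of all genes were (6.93% in either direction). Peribronchial cells had 2 higher (Igf1, Igfbp2) and 1 lower (Igfbp3), beside 6.41% and 6.68% (13.1% in either direction). Inflammatory cells had 1 higher (Igfbp4) and 2 lower (Igfbp3 and Igfbp6), beside 3.18% and 2.08% (5.26% in either direction). The Igfbp3 shares of inflammatory cells overlapped those of the epithelial and endothelial gene cluster, as given above. Igfbp2 was under 10 CPM in inflammatory cells.

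Smooth muscle-like cells had 4 higher (Igf1, Igfbp2, Igfbp4, Igfbp6) and 1 lower (Igfbp3), beside 4.31% and 2.44% of all genes (6.74% in either direction). For Igf1, Igfbp3 and Igfbp4 the shares of cells overlapped those of the epithelial and endothelial gene cluster, as given above. Igfbp2 had 5 and 94 UMIs in smooth muscle-like cells, the latter in 28 of 524 cells. Proliferating cells had 3 higher (Igf1, Igfbp2, Igfbp4) and 1 lower (Igfbp6), beside 3.75% and 8.41% (12.2% in either direction). That class had 52 saline cells and a median log2 ratio over all genes of -0.16, so its ratios are to be read against that shift. The saline side of the inflammatory class was also small, at 108 cells. Fibrotic cells could not be compared because saline held 7 of them.

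A finer clustering (resolution 1) gave 2 clusters named fibrotic. A cluster of 212 cells led by Cthrc1, Col8a1, Thbs4 and Col11a1 had 439 [419 to 459] CPM of Igfbp3, against 48.6 [46.2 to 51.0] CPM in a cluster of 2053 cells led by Spp1 and Fst. An Igfbp3 UMI was found in 64.6% and 19.1% of their cells before thinning. Igfbp2 stood at 350.4 and 142 CPM and Igf1 at 657 and 539 CPM in the same order, while Igfbp4 stood the other way at 391 and 985 CPM. Igfbp3 was thus, within the bleomycin library, higher in the Cthrc1 cluster than in any other finer cluster with 50 cells or more. All of these are cells of 1 library, and 3 cells held 31.3% of the Igfbp2 UMIs of the Cthrc1 cluster.

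Other finer clusters showed further differences. Igf1 reached 1031 CPM in 862 bleomycin cells led by Cxcl2, Ptgs2 and Mmp3 and 1061 CPM in 426 cells led by Pappa2, Aspn and Hhip. That last cluster was peribronchial fibroblast-like by its markers. A cluster of 76 saline and 164 bleomycin cells led by Cnn1, Tnnt2 and Actc1, of which the first pair also lead the coarser peribronchial cluster, was smooth muscle-like at this resolution, with the peribronchial list next. In bleomycin Igfbp2 stood at 115 CPM (490 UMIs) in the former and 202 CPM (307 UMIs) in the latter, beside 798 UMIs in the coarser peribronchial class. Igfbp4 was at 2078 CPM in 1129 cells led by Saa3, Lcn2 and Cxcl13, against 876 CPM in 1652 cells led by Nnat, Ces1d and Hp. In saline, the finer cluster led by Slc7a10 (2719 cells) had 451 CPM of Igfbp3 but 24.1 of Igfbp4 and 3.21 of Igfbp5, and that led by Inmt (1372 cells) had 222, 187 and 43.3 CPM.

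**Figure D5:**
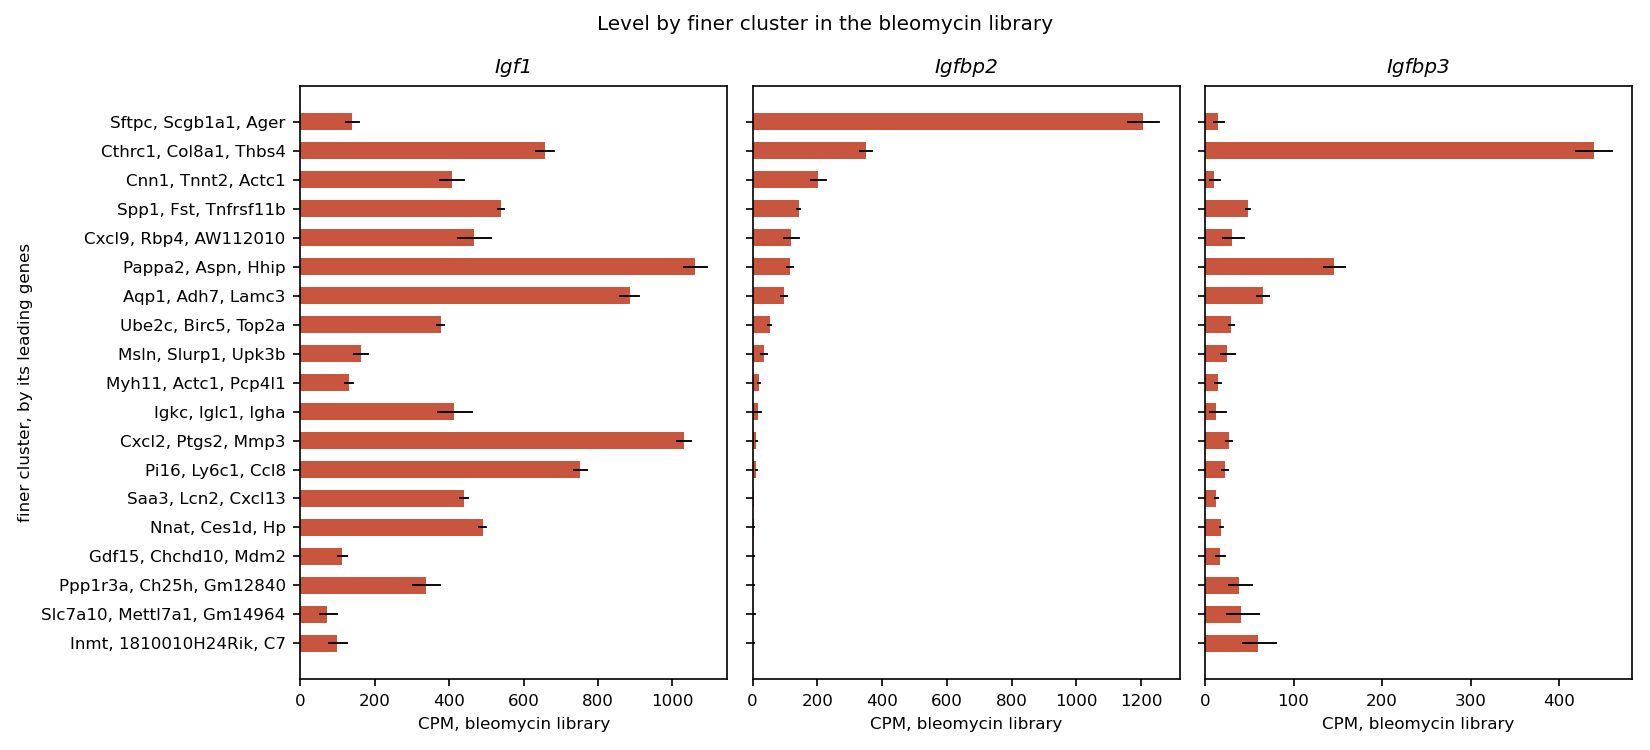
Level in CPM (x) of Igf1, Igfbp2 and Igfbp3 in the finer clusters of the bleomycin library with at least 50 cells (y, named by their 3 leading genes, in order of Igfbp2), with 95% counting intervals. Igfbp2 is highest in the epithelial cluster at 1206 CPM and next in the Cthrc1 cluster at 350.4 CPM, where Igfbp3 has its highest bar.

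Pairs of genes were counted in the same cells at 2000 UMIs. In fibrotic cells of the bleomycin library 16.1% of cells with an Igf1 UMI also had one of Igfbp2, against 6.58% of the other cells. Igfbp3 was found in 17.3% of cells with Igfbp2 and 7.39% of the other cells. In alveolar fibroblast-like cells of saline, Igfbp4 was found in 13.0% of cells with Igfbp3 and in 24.2% of the others, while Igfbp5 was found in 15.8% of cells with Igfbp4 and 4.11% of the others. The last 2 pairs follow the levels of the Slc7a10 and Cxcl9 clusters, which that class joins. Cells of 1 library are not replicates, and these shares were not tested.

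Across 22 units, each a cluster in 1 library with at least 50 cells, Igf1 and Igfbp4 ran most alike of the 28 pairs among the 8 genes, with Pearson r = 0.80 and Spearman rho = 0.76 of log2(CPM + 10). Units of 1 library share that library, so these are descriptions. Of 5388 genes at 50 CPM or more in a unit, those most like Igf1 were Bhlhe40, Plat (tissue plasminogen activator) and Mfap2 (a microfibril protein), with r from 0.90 to 0.91. The genes most like Igfbp2 were Cdkn2b (a cell-cycle inhibitor), Sema3a and Nt5e (CD73), with r from 0.83 to 0.85. Those most like Igfbp4 were Serpinf1, itself on the adventitial marker list, Nav1 and Selenon (0.88 to 0.91).

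For Igfbp5 they were Sema3d, Kank1 and Sema3c (0.80 to 0.84), and for Igfbp6 Rnase4, Atp6ap1 and Nbl1 (0.81 to 0.87). For Igf1r they were Filip1, Fmc1 and Dmd, the dystrophin gene of muscle (0.87 to 0.88). Igfbp7 was most like Lrrc32, Igsf3 and Il1r1 (0.79 to 0.88). Igfbp3 had the weakest likeness, to Rnf130, Eif1 and Cwc22 (0.77 to 0.79).

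The rest of the IGF pathway was read from a list of 43 genes, of which 29 were at 10 CPM or more in a library. By the size rule 3 were higher in bleomycin and 1 was lower, beside 5.56% and 5.91% of all genes (11.5% in either direction), so the total of 4 lies near the share of all genes and nothing is read from it. The list had a median log2 ratio of -0.02 against -0.04 over all genes. The 3 higher ones are proteases that cut IGF binding proteins. Pappa, which cleaves Igfbp4, stood at 8.91 CPM in saline against 32.4 CPM in bleomycin, a ratio of 3.63 [3.32 to 3.98], and its paralogue Pappa2, which cleaves Igfbp3 and Igfbp5, at 4.17 and 16.8 CPM. Adam12 stood at 0.748 and 13.0 CPM, a ratio of 17.4 [12.9 to 24.1].

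By class, Pappa2 was largely peribronchial, the class highest in Igfbp3 and Igfbp5, at 66.2 CPM in saline against 299 CPM in bleomycin, a ratio of 4.51 [3.72 to 5.51]. Pappa met the rule in adventitial (2.42 [1.98 to 2.98]), inflammatory (2.55 [1.38 to 5.34]) and proliferating cells (4.99 [2.12 to 15.5]), and was 1.16 [0.830 to 1.64] in peribronchial cells. Proliferating cells met the rule for Pappa2 in the other direction, at 0.489 [0.273 to 0.949]. At the saline mixture the ratio of Pappa was 1.60, short of the rule, that of Pappa2 2.87 and that of Adam12 4.22. The Pappa inhibitors Stc1 and Stc2 were under 10 CPM over all mesenchymal cells of both libraries, but in adventitial cells Stc2 stood at 11.6 and 24.3 CPM and met the rule as higher, at 2.09 [1.69 to 2.61].

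The gene lower in bleomycin was Foxo1, a transcription factor held in check by AKT, at 40.9 and 16.6 CPM, a ratio of 0.405 [0.382 to 0.429] that came to 0.592 at the saline mixture, short of the rule. Over all mesenchymal cells none of the adaptors measured (5 of 6 listed) and none of the receptors measured (Insr and Igf2r) met it; in inflammatory cells the adaptor Grb14 did, at 2.17 [1.10 to 5.06] with 8 saline UMIs. Igf2r, which clears IGF2, stood at 64.6 and 63.7 CPM. The adaptor Irs2 stood at 278 and 194 CPM. The other ligand, Igf2, stood at 4.61 and 2.46 CPM, and Igfbp1 had 1 UMI in saline and 0 in bleomycin, where a floor of 3 UMIs is 0.0230 CPM.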

How the data were processed

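Single cells of 1 saline and 1 bleomycin library were measured. The deposited files hold UMI counts per gene and cell barcode, which the authors made with Cell Ranger (6.1.2) on mm10, per the submitters' processing notes; whether introns were counted is not given in the sources used here. Barcodes with at least 500 genes and at most 10% mitochondrial counts were kept, and Scrublet (expected rate 7%) removed 66 saline and 0 bleomycin barcodes, so doublets of the bleomycin library were in effect not removed. Cells were clustered with scanpy 1.11.5 (2000 variable genes, 30 components, 15 neighbours, Leiden resolution 0.5), leaving out the 8 genes and 43 pathway genes, and named from 19 marker lists. Counts were summed per class and library to CPM. Levels carry exact Poisson, shares exact Clopper-Pearson and ratios exact conditional binomial 95% intervals. The ratio rule was tried on simulated Poisson counts at the whole-library totals only. That simulation had no classes and no spread between cells, so it does not cover the ratios within classes. Genes named as alike had the 3 highest Pearson r; pathway genes were named where they met the size rule, others after their values were seen. The 8 genes and the lists were chosen with earlier results of these data known. Total depth was 60937359 UMIs in saline and 134732429 in bleomycin. Alternatives were the clustering genes and resolution, a stricter cell filter, doublet scores, cell weights, scaling, thinning, the CPM minimum and the saline mixture.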

Additional observations from a re-analysis of the deposited data

Results flagged for a closer look

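The Igfbp6 ratio of bleomycin over saline was 2.07 [1.60 to 2.70] in smooth muscle-like cells but 0.367 [0.359 to 0.375] in adventitial fibroblast-like, 0.395 [0.368 to 0.424] in inflammatory fibroblast-like and 0.284 [0.255 to 0.318] in proliferating cells, so the size rule was met in opposite directions. The difference between classes was not tested, since each treatment had 1 library. The smooth muscle-like values rested on 77 and 291 UMIs, and the ratio there was 0.538 without the cells of highest doublet scores. In proliferating cells of saline the 3 highest of 52 cells held 40.5% of the 400 UMIs.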

How the results depend on the processing

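Over all mesenchymal cells the calls of Igf1, Igfbp2 and Igfbp3 held in every alternative run; at the saline mixture of clusters Igfbp4 came to 1.76 and Igfbp6 to 0.515, short of 2-fold, and 0 pathway genes were lower. With a minimum of 50 CPM 181 genes were higher and 214 lower, and with no minimum 1755 and 1899. Of the 8 genes, 2 were lower in alveolar cells at resolution 1 and without the highest doublet scores, and 1 was higher there with the stricter cell filter and without the highest doublet scores. In peribronchial cells 2 were lower at resolution 1, without the highest doublet scores, with cells weighted the same, with median-ratio scaling and with thinning. In inflammatory cells 1 was lower with the IGF genes in the clustering, without the highest doublet scores and with thinning, while 3 were higher at resolution 1 and 2 without the highest doublet scores. At resolution 1 that class joined a Cxcl9 cluster (978 saline and 71 bleomycin cells) with a Saa3 cluster (2 and 1129 cells). Its resolution 1 values, here and below, therefore set mostly unlike clusters against each other. In proliferating cells 2 were lower with cells weighted the same. The Igf1r ratio in alveolar cells turned to 1.01 with cells weighted the same and 1.09 with thinning, and in inflammatory cells to 0.608 at resolution 1 and 0.955 without the highest doublet scores. The Igfbp5 ratio in inflammatory cells turned to 0.843 with the IGF genes in the clustering, 0.760 with the stricter filter and 0.9998 with median-ratio scaling. The Igfbp6 ratio in smooth muscle-like cells turned to 0.538 without the highest doublet scores. The ratio of shares of cells with Igf1r was 1.11 without thinning, and that of Igfbp7 was 1.0004 at 4000 UMIs and 1.003 without thinning. The cause of these changes was not tested. The proliferating class could not be compared with the stricter filter or without the highest doublet scores, for lack of 50 saline cells. No paired analysis was possible because each treatment had 1 library, and for the same reason no replicate could be left out. Depth limits the saline values of Igfbp2, which rest on at most 35 UMIs in a mesenchymal class.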

Other observations

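Further genes of the IGF system that met no size rule over all mesenchymal cells lay within 2-fold between the libraries or under 10 CPM. The growth hormone receptor Ghr stood at 91.9 CPM in saline against 83.6 CPM in bleomycin, and Socs2, a growth hormone target that restrains its signal, at 171 and 135 CPM. The protease Htra1 stood at 92.3 and 67.1 CPM over all mesenchymal cells and met the rule as lower in adventitial cells, at 0.316 [0.291 to 0.343]. Igf2 met it as lower in adventitial (0.413 [0.294 to 0.574]), peribronchial (0.188) and smooth muscle-like cells (0.479 [0.309 to 0.740]), and was under 10 CPM over all mesenchymal cells of both libraries.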
